A study of Triticum aestivum with 32 samples.

Results

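The effect of limited water on heated wheat was read from 8 flag leaf libraries out of the 32 in the series. These are the 4 of heat plus drought and the 4 of heat alone, chosen by their treatment labels. All plants were Stettler, a Canadian red spring bread wheat, grown in pots in a greenhouse under 16 h days and treated from Feekes stage 8, when the spike forms, 5 weeks after sowing, with 8 pots per treatment. Both groups stood in the same warm greenhouse, which reached 30 °C between 9 am and 3 pm, with days of 24 °C and nights of 18 °C outside those hours. Heat pots were watered to 100% of field capacity and heat plus drought pots were held at 40%, and neither received salt. The other groups used here are control and drought (the same water levels at 24 °C by day), salt and salt plus drought (sodium chloride raised to 80 mM), and salt plus heat and salt plus heat plus drought (the same in the warm greenhouse). Each group has 4 libraries, and the series text calls the replicates independent biological samples.

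Drought lowers the water potential of a leaf, closes its stomata and raises abscisic acid, a hormone that turns on a large set of protective genes. Closed stomata also limit the cooling of the leaf by transpiration. Heat unfolds proteins and calls up chaperones of the heat shock protein families. The flag leaf is the last leaf below the spike and supplies much of the sugar for the filling grain. Bread wheat is hexaploid, and most genes occur as near copies on the A, B and D subgenomes.

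Values are in TPM, a measure of relative transcript abundance that corrects for transcript length and sums to 1000000 in each library, so levels can be compared between genes but the depth behind them is unknown. Transcripts were summed to gene models. The files pair these identifiers with no gene names, and the reference table used here, on a later wheat assembly, matched 0 of them. Gene functions are therefore not given, the flag leaf label was not checked against marker genes, and few identifiers are printed. In bulk leaf RNA, fewer cells of a type and less RNA per cell cannot be told apart.

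The 4 heat libraries were not alike. The 100 gene models of highest mean over the 8 libraries held 36.5%, 21.8%, 32.6% and 20.9% of all TPM in heat replicates 1 to 4, against 21.9%, 24.2%, 25.4% and 24.4% in heat plus drought replicates 1 to 4. Replicates 1 and 3 of heat thus lay above all heat plus drought libraries, and replicates 2 and 4 below them. In 64.1% of the 50768 gene models tested, heat replicates 2 and 4 both exceeded replicates 1 and 3, and in 7.10% both were lower. After quantile normalisation, which gives all libraries the same distribution of values, the shares were 27.6% and 24.6%. The median standard deviation of a gene model over 4 libraries was 0.35 on the log2(TPM + 1) scale in heat, the widest of the 8 groups, and 0.19 in heat plus drought, the narrowest. After quantile normalisation it was 0.24 in heat and 0.19 in heat plus drought, where salt plus heat was the widest (0.24) and the triple stress the narrowest (0.18). The mean share of the top 100 was 28.0% ± 7.80 with heat and 23.9% ± 1.47 with added drought (SD, n = 4), a difference within that spread (exact permutation p = 0.429, two-sided, adjusted p = 0.429 over 3 measures). The number of gene models at 1 TPM or more was 48765 ± 3465 and 51163 ± 631 (SD, n = 4, exact permutation p = 0.343, adjusted p = 0.429). Low confidence gene models held 8.69% ± 0.519 and 9.31% ± 0.167 of the TPM (SD, n = 4, exact permutation p = 0.0571, adjusted p = 0.171), where 4 against 4 libraries can reach 0.0286. Among the other groups, the top 100 took 33.9% in control replicate 3 (other controls 22.0% to 23.6%), and low confidence gene models took 21.6% in salt replicate 3, against 7.81% to 9.90% in the other libraries outside the 2 heated groups compared here.

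Heat replicate 3 also lacked much of the signal from the start of chromosome 1B. Of 216 tested gene models from TraesCS1B02G000200 to TraesCS1B02G093300, 212 were lower there than on average in heat replicates 1, 2 and 4, with a median log2 ratio of -2.09. A level of 5 TPM or more was reached by 61 of them in heat replicates 1, 2 and 4 alike, and 47 of these 61 fell short of 0.5 TPM in replicate 3. Within heat plus drought, the median log2 ratio of each library to the rest of its group over the same stretch lay between -0.07 and 0.07. The median log2 difference between heat plus drought and heat in this stretch was 0.64 with all libraries and 0.10 without heat replicate 3. Only 1 gene model of the stretch was called in the comparison below.

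**Figure D1:**
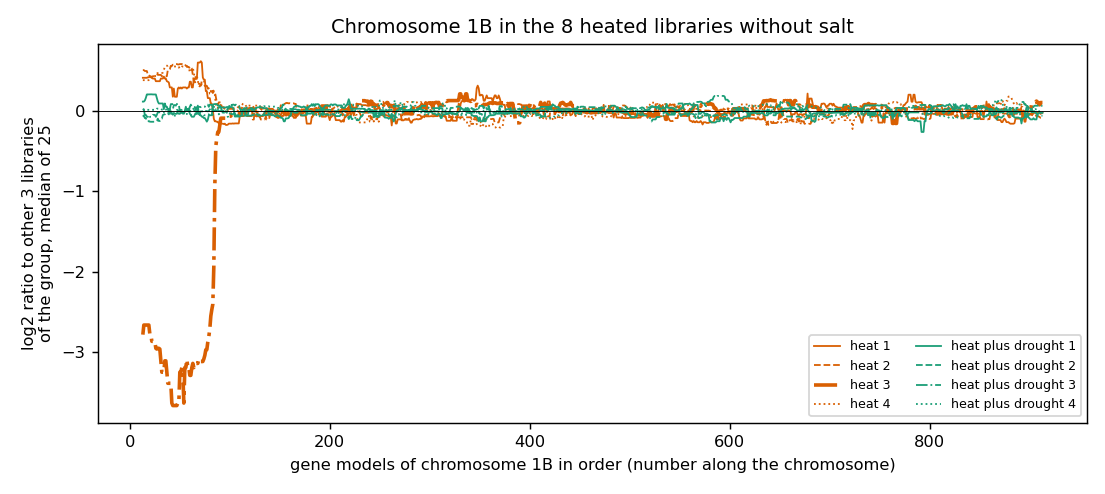
Ratio of each library to the average of its 3 group mates along chromosome 1B (log2, median of 25 neighbouring high confidence gene models at a mean of 5 TPM or more, after removing the chromosome median), against gene model order. Heat libraries are orange and heat plus drought libraries green. Only the thick line, heat replicate 3, drops far below 0, over the first stretch of the chromosome. The other heat libraries are compared with an average that includes replicate 3, which lifts their ratios over that stretch.

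On the deposited scale, adding drought to heat raised more gene models than it lowered, a balance that quantile normalisation and median-of-ratios scaling reversed and that rescaling without the 100 most abundant gene models kept. Of 50768 gene models with at least 1 TPM in 4 or more of the 8 libraries, 353 were higher (0.695%) and 111 lower (0.219%), 464 in all (0.914%, limma in a model of all 8 groups, Benjamini-Hochberg adjusted p under 0.05). Changes of at least 2-fold numbered 143 upward and 72 downward. The median change of all tested gene models was 0.17 on the log2(TPM + 1) scale, and 74.4% of them lay above 0. Quantile normalisation gave 443 rises and 499 falls (median change 0.02), and median-of-ratios scaling 292 and 485 (median change near 0). Rescaling without the 100 most abundant gene models gave 360 rises and 151 falls (median change 0.12). No gene model called both as deposited and after quantile normalisation or median-of-ratios scaling changed sign. Quantile normalisation also called 229 of the 353 raised and 110 of the 111 lowered gene models, and median-of-ratios scaling 185 and 110.

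The count leaned on single libraries and on the shared estimate of spread. Leaving out heat replicate 1 gave 120 calls, replicate 2 gave 306, replicate 3 gave 166 and replicate 4 gave 1674. Leaving out a heat plus drought library gave 247 (replicate 1), 88 (replicate 2), 693 (replicate 3) and 208 (replicate 4). Control replicate 3 is not in the comparison but enters the shared spread, and without it 747 were called. A model of these 8 libraries alone called 29, among them 16 of the 353 raised and 6 of the 111 lowered. Without both heat replicates 1 and 3 there were 74 rises and 91 falls, among them 45 of the 353 and 38 of the 111. A group of 40 gene models, 20 higher and 20 lower, kept its calls under quantile normalisation and median-of-ratios scaling, without each of the 8 libraries and without heat replicates 1 and 3 together. In all 40 the 4 heat plus drought libraries lay on one side of the 4 heat libraries. This held for 304 of the 353 raised and 103 of the 111 lowered gene models. It held for 8.44% of all tested gene models (7.1% higher and 1.34% lower). The same libraries chose the 40, so their lack of overlap describes them and supports nothing.

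The 353 raised gene models together held 5220, 7094, 6125 and 7586 TPM in heat replicates 1 to 4 and 12384, 15274, 13538 and 12777 TPM in heat plus drought replicates 1 to 4. The lowest heat plus drought library thus stood well above the highest heat library. The heat libraries were again uneven, with replicates 2 and 4 above 1 and 3 in 177 of the 353 gene models (50.1%, against 64.1% of all tested). The median rise was 0.74 against heat replicates 2 and 4 and 1.01 against replicates 1 and 3, on the log2(TPM + 1) scale. For all tested gene models these medians were -0.04 and 0.38. The 111 lowered gene models summed to 2703, 2606, 2646 and 1958 TPM in heat and 943, 869, 895 and 951 TPM in heat plus drought. Their median fall was the same size against either pair of heat libraries, with log2 differences of -1.11 and -1.09. These sums describe the gene models by the values that chose them.

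Levels in the other 6 groups entered that choice only through the shared spread. The raised gene models summed to 8626 ± 546 TPM in control, 10338 ± 1855 in drought, 11914 ± 1235 in salt and 10898 ± 890 in salt plus drought (SD, n = 4). With added heat they summed to 13152 ± 1544 TPM with salt and 13334 ± 323 with salt and drought, beside 13493 ± 1280 for heat plus drought and 6506 ± 1051 for heat alone. Heat alone was the lowest of the 8 groups for this set, which its own values helped to choose. The lowered gene models summed to 1752 ± 228 TPM in control and 2478 ± 349 in heat, and to between 915 and 1480 TPM on average in the 6 groups with drought, salt or both.

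**Figure D2:**
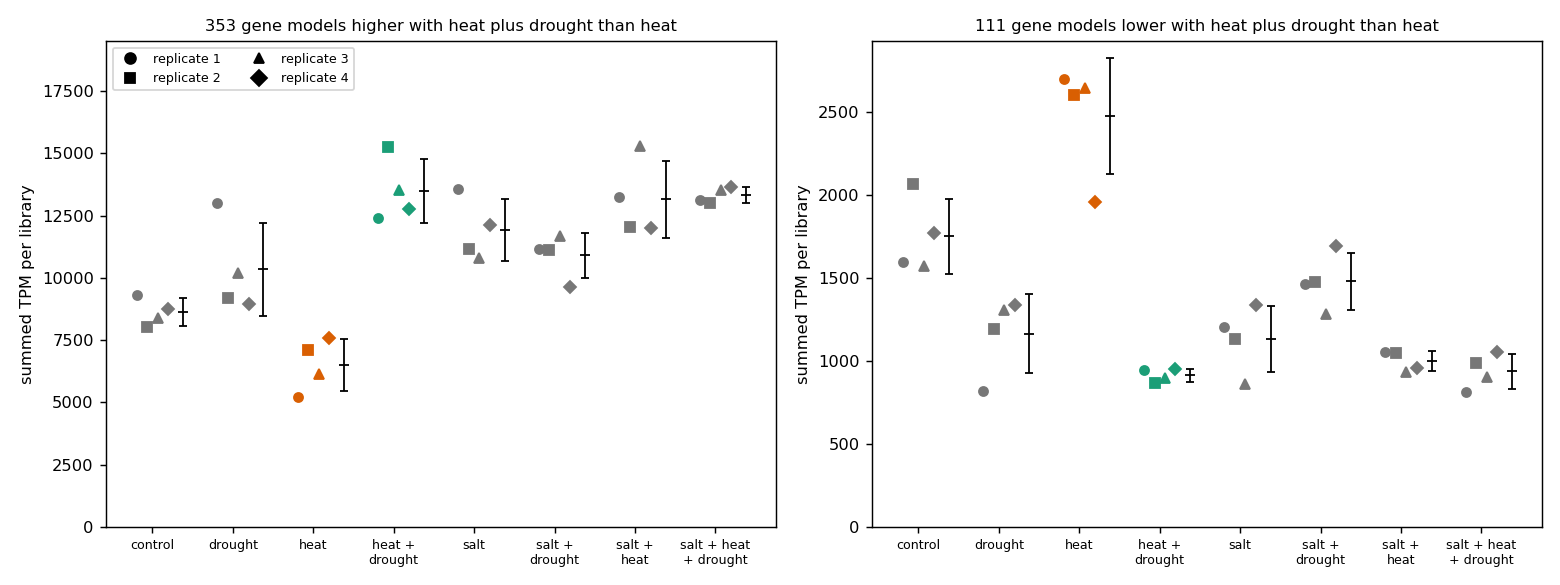
Summed TPM of the 353 gene models higher (left) and the 111 lower (right) with heat plus drought than with heat, per library, in the 8 groups. Symbols are replicates and the black mark is the mean ± SD of 4 libraries; heat (orange) is the lowest group on the left and the highest on the right, and the heat plus drought libraries (green) lie close to the salt plus heat libraries in both.

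Among high confidence gene models at 5 TPM or more whose groups did not overlap, the largest rise was that of TraesCS5A02G257700 on chromosome 5A. It stood at 0.90, 10.1, 0.67 and 9.54 TPM in heat replicates 1 to 4 and at 45.2, 91.4, 53.9 and 34.2 TPM in heat plus drought replicates 1 to 4. The groups did not overlap, and heat replicates 2 and 4 lay above 1 and 3. The means were 5.30 ± 5.23 and 56.2 ± 24.8 TPM (SD, n = 4), a log2 change of 3.61 (SE 0.43, limma adjusted p = 6.38e-05). The next largest rise was that of TraesCS5B02G257000 on 5B, with 2.48, 14.2, 2.69 and 14.3 TPM in heat and 53.6, 103, 69.5 and 37.1 TPM in heat plus drought. Its log2 change was 3.08 (SE 0.37, limma adjusted p = 6.38e-05), with the same order of libraries in heat. Both averaged below 0.6 TPM in each of the 4 groups kept at 24 °C, drought and salt plus drought included. With salt plus heat they averaged 81.3 ± 34.6 and 99.5 ± 36.9 TPM, and with all 3 stresses 55.5 ± 19.0 and 51.1 ± 13.7 TPM (SD, n = 4). In the model of the 8 libraries alone their adjusted p was 0.087 and 0.0856.

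Among high confidence gene models at 5 TPM or more whose groups did not overlap, the largest fall was that of TraesCS3A02G083400 on 3A, from 9.29, 10.2, 3.31 and 24.4 TPM in heat to values listed at 0 in heat plus drought replicates 1 to 3 and 1.66 TPM in replicate 4. The log2 change was -3.05 (SE 0.63, limma adjusted p = 0.017), while the lowest of all 111 lowered gene models was at -3.99. Its call was lost without heat replicate 1 (limma adjusted p = 0.0533) and without heat plus drought replicate 2 (limma adjusted p = 0.0768). It was also lost in the model of the 8 libraries alone (limma adjusted p = 0.0773) and with a pseudocount of 0.1 (limma adjusted p = 0.0513). TraesCS1D02G431200 on 1D fell from 18.7, 16.6, 23.8 and 5.78 TPM to 1.56, 0.30, 1.81 and 0.51 TPM (log2 change -3.00, SE 0.41, limma adjusted p = 0.000403), and kept its call in all 48 alternatives tried. It was also low wherever drought or salt was given without heat, at 0.12, 4.71, 0.75 and 2.41 TPM in drought and 0.07, 0.64, 0.06 and 0.11 TPM in salt, against 16.8 to 40.4 TPM in control. Its log2 change with drought in unheated plants was -3.27 (SE 0.41, limma adjusted p = 9.03e-05), and this differed from the change under heat by 0.27 (SE 0.58, limma adjusted p = 0.78).

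**Figure D3:**
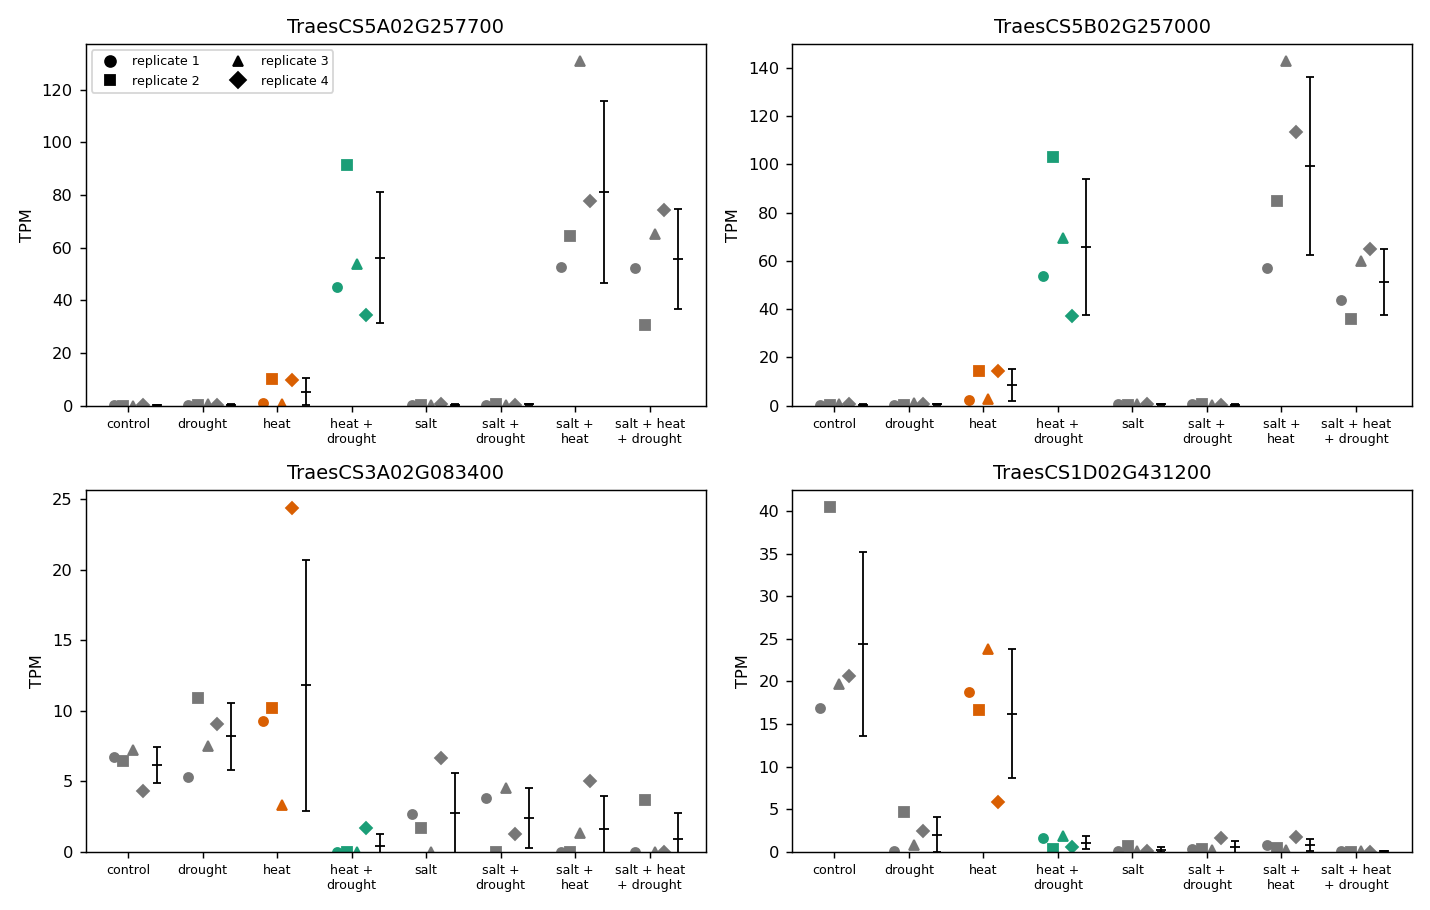
TPM per library in the 8 groups for the 2 gene models with the largest rise (top) and the 2 with the largest fall (bottom) when drought was added to heat, among high confidence gene models at 5 TPM or more whose groups did not overlap. Symbols are replicates, the black mark is the mean ± SD of 4 libraries and bars are cut at 0; the 2 risen gene models were near 0 in the 4 groups at 24 °C, and TraesCS1D02G431200 was high only in control and heat.

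The changed gene models were spread over the genome. The A, B and D subgenomes held 114, 117 and 117 raised and 32, 32 and 45 lowered gene models, while 32.2%, 33.5% and 32.7% of tested gene models lie on them. By chromosome, rises made up between 0.47% (7B) and 1.03% (4B) of tested gene models, and falls made up between 0.0388% (5A) and 0.411% (7D) on the chromosomes that held any. By mean level, 0.498% of gene models under 5 TPM rose, 0.711% of those at 5 to 20 TPM, 1.42% at 20 to 100 TPM and 1.45% at 100 TPM or more. The shares that fell were 0.223%, 0.165%, 0.381% and 0.0907% in the same order. Of the 100 most abundant, 0 were called (limma, adjusted), 6 had an unadjusted p under 0.05 and 71 had a log2 difference below 0. Low confidence models were 64 of the 353 rises (18.1%) and 11 of the 111 falls (9.91%), against 19.0% of those tested.

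Few called gene models were neighbours. Among tested gene models in chromosome order, 15 rises formed 6 runs of adjacent models and 2 falls formed 1. The longest run, picked out here after its values were seen, held 4 gene models from TraesCS3B02G130300 to TraesCS3B02G131200 on 3B. Summed over the run, heat replicates 1 to 4 held 7.01, 51.6, 13.4 and 29.0 TPM and heat plus drought replicates 1 to 4 held 86.55, 152, 127 and 53.0 TPM. The groups were close at their nearest libraries, 51.6 and 53.0 TPM. The run held at most 1.41 TPM in any library kept at 24 °C, 139 ± 70.7 TPM with salt plus heat and 57.3 ± 9.28 TPM with all 3 stresses (SD, n = 4). The adjacent pair of falls, TraesCS7B02G445500 and TraesCS7B02G445600, summed to 47.3, 99.2, 63.5 and 73.7 TPM in heat and 18.6, 22.0, 17.2 and 25.4 TPM in heat plus drought.

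A few gene models were close to absent in one group. There were 14 below 0.5 TPM in all heat libraries and at 1 TPM or more in all heat plus drought libraries, 8 of them of low confidence, and 7 of the 14 were called. None of the 14 exceeded 10.7 TPM. The opposite pattern was found in 6 gene models, 5 of them called and 4 of low confidence, with up to 30.4 TPM in a heat library. Both patterns were picked from 269428 gene models by the values that the call also tests, so these counts of calls support nothing. Of all tested gene models 0.914% were called.

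The sets were also read in contrasts between other groups, which share with the choice of the sets the spread estimated over all 8 groups. Of the 111 lowered gene models, 30 were also lower in drought against control (27.0%, limma adjusted p under 0.05). Of all tested gene models 1.52% were called there, 1.25% lower and 0.272% higher. Their median log2 change there was -0.48, against -0.18 for all tested. In salt against control, where 1.6% of all tested were called, 33 of the 111 were lower (29.7%, against 1.04% of all tested) and 3 higher (against 0.563%). Without salt replicate 3 the lowered set numbered 124, of which 26 were lower there (21.0%, against 0.504% of all tested). Without control replicate 3 it numbered 143, of which 50 were lower in drought against control (34.97%, against 11.8% of all tested). Both of these comparisons use the same control libraries. Of the 353 raised gene models, 13 were higher in drought against control (3.68%, against 0.272% of all tested) and 1 lower. Without control replicate 3 the raised set numbered 604. Of these, 23 were higher there (3.81%, against 0.847% of all tested) and 42 lower (6.95%, against 11.8%). More of the set were then called lower than higher, as among all tested gene models. The median log2 change of the set was -0.11, against -0.29 for all tested.

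Heat given to salted plants was compared in 16 libraries, of which the salt libraries were also used in salt against control. In salt plus heat against salt, where 2.77% of all tested were called, 74 of the 353 were higher (21.0%, against 2.11% of all tested) and 12 lower (against 0.66%). Without salt replicate 3 the raised set numbered 401, of which 65 were higher there (16.2%, against 1.07% of all tested). In salt plus heat plus drought against salt plus drought, where 0.804% were called, 68 of the 353 were higher (19.3%, against 0.534% of all tested). Of the 111 lowered, 17 were lower in the latter comparison (15.3%, against 0.27% of all tested). The raised gene models had a median log2 change of 0.23 in this comparison, against 0.01 for all tested. In salt plus heat against salt their median was 0.11, against 0.13 for all tested. In that comparison 14 of the 111 lowered gene models were lower (12.6%, against 0.66% of all tested) and 5 higher (against 2.11%). The median log2 change of the 111 was 0.04. Without heat replicates 1 and 3 the lowered set numbered 91. Of these, 12 were lower in salt plus heat against salt (13.2%, against 0.81% of all tested) and 13 higher (14.3%, against 2.98%).

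In salt plus heat plus drought against salt plus heat, where 0.295% of all tested were called, 10 of the 353 raised gene models were higher (2.83%, against 0.152% of all tested) and 9 lower (2.55%, against 0.144%). Of the 111 lowered, 2 were lower and 1 higher. In salt plus drought against salt no gene model of the 50768 passed the threshold (limma, adjusted), and 3131 had an unadjusted p under 0.05. There 80 of the 111 lowered gene models lay above 0 (72.1%, against 69.8% of all tested), with a median log2 change of 0.23 against 0.10 for all tested. Across the 50768 tested gene models, the drought difference under heat had Pearson's r of 0.15 with that at 24 °C, 0.16 with that under salt plus heat and -0.13 with that under salt. These values describe gene models that share libraries within each comparison and are not independent.

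**Figure D4:**
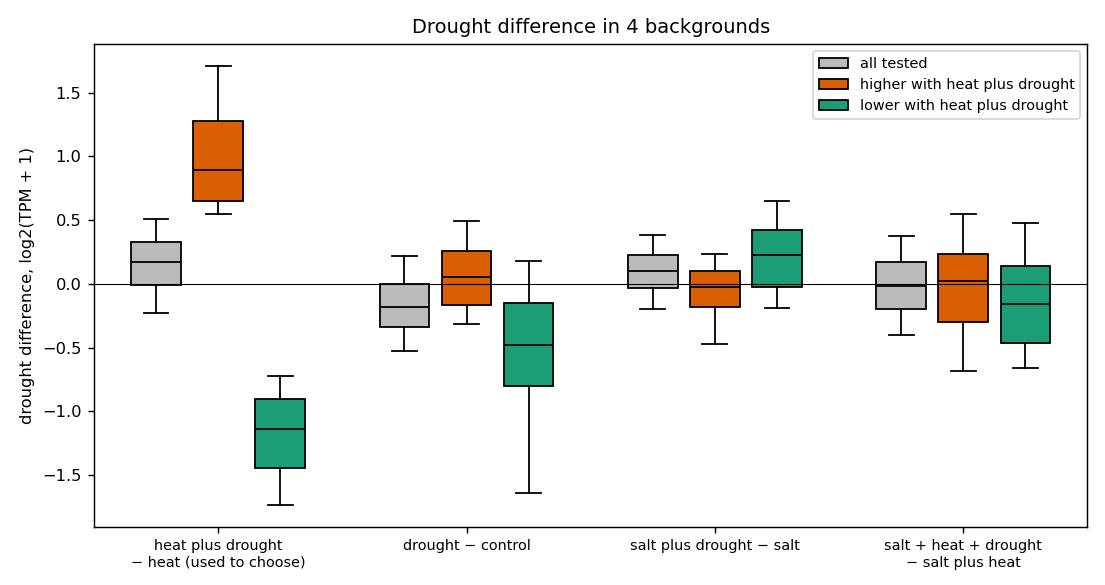
Drought difference on the log2(TPM + 1) scale in 4 backgrounds for all 50768 tested gene models (grey), the 353 raised (orange) and the 111 lowered (green) by drought under heat. Boxes span the quartiles with the median, and whiskers the 10th to 90th percentiles; the first group of boxes shows the values that chose the sets, and of the others the lowered set departs from 0 most in drought against control, with a median of -0.48.

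Whether the effect of drought depended on heat was tested directly, as the drought difference under heat less that at 24 °C. The 2 drought differences differed in 299 gene models (0.589%). The signed difference under heat lay above that at 24 °C for 289 gene models (0.569%) and below it for 10 (0.0197%, limma, adjusted p under 0.05). The direction alone does not tell whether drought acted more or less strongly under heat. The median difference of all tested gene models was 0.35. Of the 353 raised gene models, 67 were among the 289, and of the 111 lowered, 6 were among the 10. The heat and heat plus drought libraries that chose these sets enter this test, so the overlaps describe the sets and support nothing. The count of 299 moved with nearly every library. It was 34, 29, 9887 and 28 on leaving out control replicates 1 to 4 in turn, and 103, 1334 and 23 for drought replicates 1 to 3. For heat replicates 1 to 4 it was 21, 656, 63 and 3471, and for heat plus drought replicates 1 to 4 it was 32, 63, 1049 and 64. Libraries outside the comparison moved it through the shared spread, to 173, 189, 199 and 180 for salt plus drought replicates 1 to 4 and 192, 163, 168 and 170 for replicates 1 to 4 of the triple stress. With quantile normalisation 53 lay above and 51 below (median difference 0.03), and with median-of-ratios scaling 55 and 83 (median difference 0.02).

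TraesCS4B02G219500 on 4B had the largest positive difference among called high confidence gene models at 5 TPM or more. Adding drought to heat raised it from 0.69, 2.22, 0.69 and 1.71 TPM to 11.01, 13.2, 12.9 and 13.6 TPM (log2 change 2.61, SE 0.47, limma adjusted p = 0.00565). At 24 °C it stood at 12.4, 9.99, 9.20 and 15.3 TPM in control and 6.49, 5.76, 4.79 and 0 TPM in drought (log2 change -1.60, SE 0.47, limma adjusted p = 0.0742). The 2 changes differed by 4.20 (SE 0.66, limma adjusted p = 0.00483), and heat plus drought brought it to the level of control, 12.7 ± 1.13 and 11.7 ± 2.75 TPM (SD, n = 4). The difference kept its call when each library was left out in turn and lost it in a model of the 4 compared groups alone (limma adjusted p = 0.0736). TraesCS2A02G493400 followed with 3.41 (SE 0.65, limma adjusted p = 0.0203). Control and drought averaged 42.5 ± 18.9 and 10.8 ± 5.23 TPM, and heat without and with drought 15.9 ± 9.53 and 47.8 ± 27.5 TPM (SD, n = 4). Its change with drought under heat was not called by itself (log2 change 1.55, SE 0.46, limma adjusted p = 0.0911). Heat replicate 2, at 26.5 TPM, lay above heat plus drought replicates 3 and 4, at 25.1 and 24.5 TPM. The difference lost its call without control replicate 1, 2 or 4, heat replicate 1, drought replicate 3 or heat plus drought replicate 1 (limma adjusted p from 0.0503 to 0.0713). It was also lost in a model of the 4 compared groups alone (limma adjusted p = 0.142) and without heat replicates 1 and 3 together (limma adjusted p = 0.148).

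By the same rule 2 negative differences are given. TraesCS4A02G116800 on 4A stood at 45.1, 47.1, 37.5 and 43.6 TPM in heat and 20.1, 15.3, 21.5 and 28.9 TPM in heat plus drought, with no overlap (log2 change -1.01, SE 0.16, limma adjusted p = 0.0022). In control and drought it averaged 15.9 ± 2.83 and 20.8 ± 4.13 TPM (SD, n = 4), and the 2 drought differences differed by -1.37 (SE 0.23, limma adjusted p = 0.00592, and 0.124 in a model of the 4 compared groups alone). Its level in heat alone was the highest of the 8 groups, and with salt plus heat it was the lowest, 13.3 ± 0.996 TPM. TraesCS7B02G338200 differed by -2.55 (SE 0.60, limma adjusted p = 0.0449). Control averaged 8.84 ± 1.40 TPM and drought 29.5 ± 16.9, and heat without and with drought 18.5 ± 4.12 and 8.69 ± 3.68 TPM (SD, n = 4). Drought replicates 1 to 4 held 52.2, 32.7, 17.3 and 15.8 TPM. Its call was lost in 25 of 47 alternatives. Among them were the omission of control replicate 1, 2 or 4, heat replicate 1 or 3, drought replicate 1 or 3, or heat plus drought replicate 1, 2 or 4 (limma adjusted p from 0.0667 to 0.111). Omitting salt or salt plus heat replicate 4, any salt plus drought replicate or replicates 1 to 3 of the triple stress also ended it (limma adjusted p from 0.0507 to 0.0557).

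**Figure D5:**
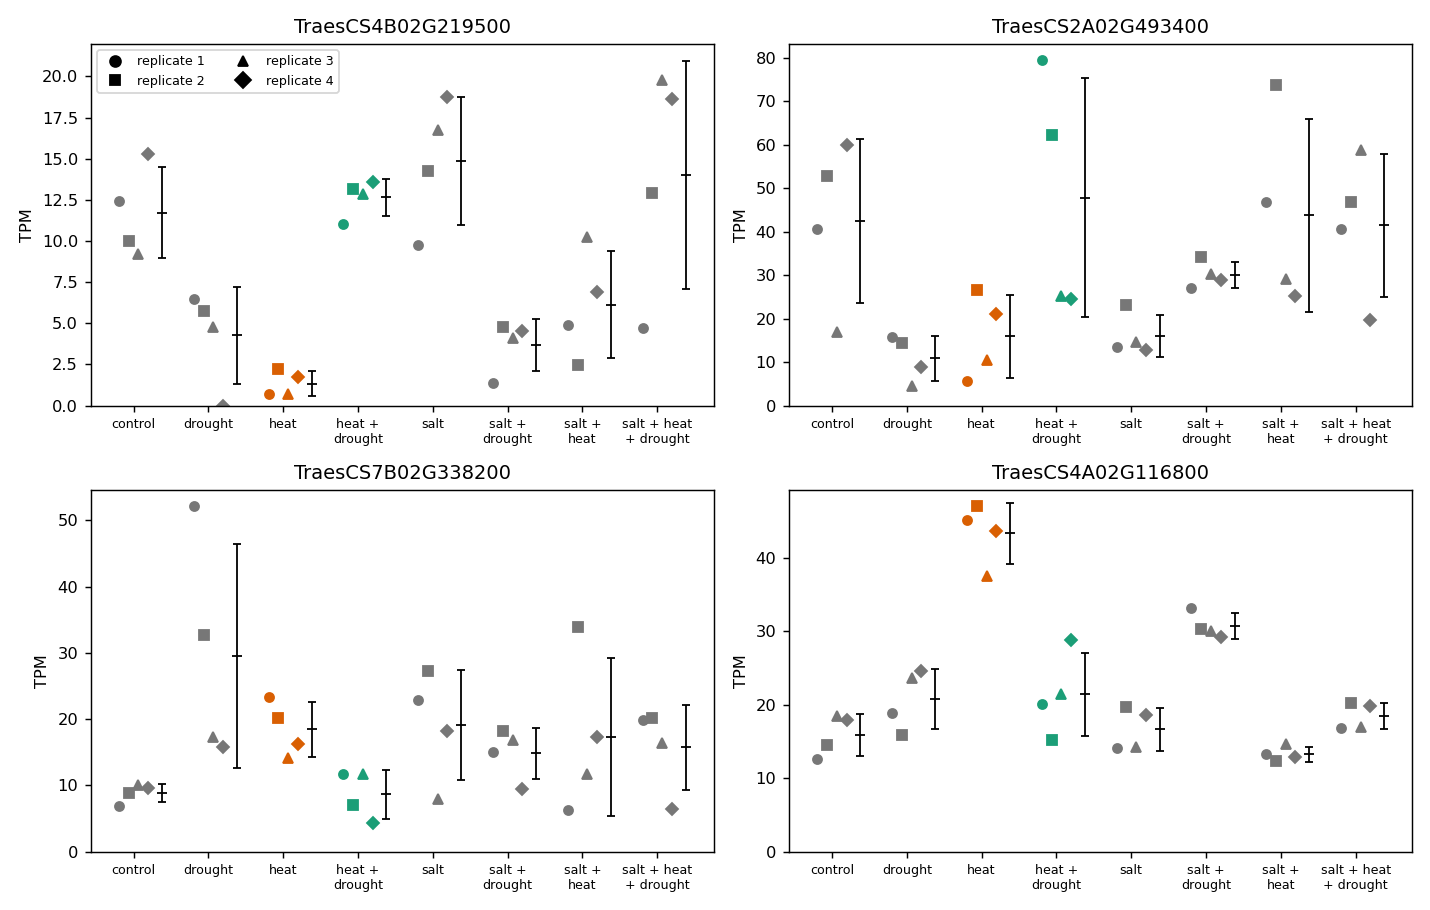
TPM per library in the 8 groups for high confidence gene models at 5 TPM or more. Their signed drought difference under heat lay above (top) or below (bottom) that at 24 °C. Symbols are replicates, the black mark is the mean ± SD of 4 libraries and bars are cut at 0; TraesCS4B02G219500 was low in heat and at the control level in heat plus drought, and TraesCS4A02G116800 was highest in heat.

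The dependence on salt was tested as the drought difference in salt plus heat less that in heat. The signed difference with salt lay above that without for 52 gene models (0.102%) and below it for 188 (0.37%, limma, adjusted p under 0.05). Together these were 240 (0.473%). The 353 raised gene models held 93 of the 188, and the 111 lowered held 22 of the 52. Heat and heat plus drought libraries enter this test too, so these overlaps describe the sets and support nothing. The count of 240 became 137, 149 and 413 on leaving out heat replicate 1, 3 or 4. It became 106 and 131 for heat plus drought replicates 2 and 3, 159 for salt plus heat replicate 1, and 128 for replicate 3 or 4 of the triple stress. Quantile normalisation gave 225 above and 300 below, and median-of-ratios scaling 192 and 233.

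Among called high confidence gene models at 5 TPM or more, TraesCS5A02G257700 and TraesCS3A02G113000 had the most negative differences. In a model of the 4 compared groups alone their limma adjusted p was 0.0696 and 0.0725. For TraesCS5A02G257700 drought under salt plus heat gave a log2 change of -0.53 (SE 0.43, limma adjusted p = 0.674), which differed from that under heat by -4.14 (SE 0.61, limma adjusted p = 0.000964). TraesCS3A02G113000, on 3A, was listed at 0 in all 16 libraries at 24 °C. It stood at 0.73, 4.92, 0.64 and 1.74 TPM in heat and 8.43, 13.1, 9.47 and 3.75 TPM in heat plus drought, where heat replicate 2 overlapped the heat plus drought range. With salt plus heat it stood at 1.96, 20.2, 16.7 and 21.5 TPM and with all 3 stresses at 2.70, 1.11, 2.13 and 1.18 TPM. The 2 drought differences, 1.79 (limma adjusted p = 0.0402) and -2.22 (limma adjusted p = 0.0213), differed by -4.01 (SE 0.60, limma adjusted p = 0.00122).

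By the same rule, positive differences were led by TraesCS4D02G062000 and TraesCS7B02G445600. TraesCS7B02G445600 fell with drought under heat. Its levels were 29.96, 56.8, 42.5 and 42.0 TPM in heat and 11.1, 15.0, 11.7 and 14.8 TPM with added drought, with no overlap (log2 change -1.61, SE 0.35, limma adjusted p = 0.0237). Under salt plus heat it stood at 26.5, 6.96, 26.8 and 6.70 TPM without drought and 37.4, 24.9, 25.5 and 39.1 TPM with it, a difference between the drought effects of 2.73 (SE 0.49, limma adjusted p = 0.00591, and 0.0721 in a model of the 4 compared groups alone). TraesCS4D02G062000 averaged 8.17 ± 2.82 TPM in heat and 4.35 ± 1.93 in heat plus drought, and 0.885 ± 1.18 and 6.20 ± 2.01 TPM in the salted groups (SD, n = 4, difference 2.86, SE 0.67, limma adjusted p = 0.048). That call was lost in 29 of 47 alternatives, among them the omission of any of heat replicates 1, 2 and 4, heat plus drought replicates 2 to 4, salt plus heat replicates 2 to 4 or any replicate of the triple stress (limma adjusted p from 0.0564 to 0.122). Omitting control replicate 1, drought replicate 3 or 4, salt replicate 1, 2 or 4, or any salt plus drought replicate also ended it (limma adjusted p from 0.0507 to 0.0593).

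At the level of transcripts, 372 of 54775 were higher (0.679%) and 107 lower (0.195%) with added drought, 479 in all (0.874%, limma, adjusted p under 0.05). They belonged to 476 gene models, of which 394 were also called as a whole (0.914% of all tested gene models were called). A further 70 called gene models had no called transcript. Both tests use values of the same libraries, so this overlap describes the calls and supports nothing. Shares of a transcript within its gene model were tested for 6882 transcripts of 3120 gene models, and 68 shares in 41 gene models shifted (0.988%, limma on arcsine-transformed shares, adjusted p under 0.05). The split between transcripts of a gene model is an estimate of RSEM and is uncertain where they overlap. The counts of 479 transcripts and 68 shares became 127 and 20 without heat replicate 1, 195 and 80 without replicate 3, and 1592 and 153 without replicate 4. Leaving out a heat plus drought library gave 250 and 42 (replicate 1), 103 and 40 (replicate 2) and 203 and 22 (replicate 4).

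By the rule for named gene models, the largest shift was in TraesCS6A02G314100, whose first listed transcript made up 10.99%, 53.0%, 36.1% and 45.6% of its TPM in heat replicates 1 to 4. In heat plus drought replicates 1 to 4 the share was 100%, 77.5%, 96.6% and 100%, all above the heat libraries. The mean share went from 36.4% ± 18.3 to 93.5% ± 10.8 (SD, n = 4, limma adjusted p = 0.0368), while the gene model averaged 39.3 and 34.98 TPM. In TraesCS7B02G079700 the second transcript made up 43.1%, 63.3%, 63.0% and 32.7% in heat and 70.1%, 100%, 100% and 100% in heat plus drought (limma adjusted p = 0.0408), again with no overlap.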

How the data were processed

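Flag leaf RNA of 32 libraries was sequenced, and the deposited table gives TPM for 298774 transcripts. STAR and RSEM 1.3.3 are named as aligner and quantifier per the series' design text and the submitters' processing notes, with the IWGSC 1.1 annotation. These sources name CASAVA and Trimmomatic with no version. RSEM divides reads that match several copies among them, so values of single near-identical copies are uncertain. Each deposited TPM column summed to 1000000 within 3. All columns were assigned to samples by title, and 0 were left over. TPM keep no depth, so no counting interval is given and no count model was used.

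TPM were summed to 269428 gene models. Those with at least 1 TPM in 4 or more of the 8 heat and heat plus drought libraries were tested as log2(TPM + 1), a scale that understates changes of low genes. limma 3.58.1 in R 4.3.3 (eBayes with a trend) fitted a mean for each of the 8 groups, with 24 residual degrees of freedom, two-sided, adjusted by Benjamini-Hochberg over all features tested. Transcript shares were fitted as arcsine square roots, without a trend. Measures with 1 value per library were compared by exact permutation over 70 splits. Gene models were named by a rule: high confidence, past the threshold, mean of at least 5 TPM in the highest group and, for heat plus drought against heat, no overlap between the libraries; of these the 2 largest rises and 2 largest falls, or the extreme differences. For transcript shares the same number was named in each direction. Fits were tested on simulated data. The members, lists and tests were chosen with earlier results of these data known. Lists by gene function could not be applied without names. Alternatives changed the pseudocount, the filter, the scaling, the model, blocks, array weights and the libraries used.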

Additional observations from a re-analysis of the deposited data

Results flagged for a closer look

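In groups of 4 libraries, 6 of 82 had 1 library far from the other 3, where chance alone flags about 1 in 20. The summed level of the 111 lowered gene models was 1958 TPM in heat replicate 4, against 2606 to 2703 TPM in the other heat libraries. TraesCS3A02G083400 was listed at 0 in all but 1 library of heat plus drought, which held 1.66 TPM, and of the triple stress, which held 3.66 TPM. TraesCS1D02G431200 had 1 high library in control (40.4 TPM), in salt (0.64 TPM) and in salt plus drought (1.66 TPM).

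Drought effects that differed between backgrounds by limma's test of the difference numbered 299 for heat against no heat and 240 for salt plus heat against heat. The differences of heat against no heat were 4.20 for TraesCS4B02G219500, 3.41 for TraesCS2A02G493400, -2.55 for TraesCS7B02G338200, -1.37 for TraesCS4A02G116800, 3.34 for TraesCS5A02G257700 and 3.00 for TraesCS5B02G257000, on the log2(TPM + 1) scale. Those of salt plus heat against heat were 2.86 for TraesCS4D02G062000, 2.73 for TraesCS7B02G445600, -4.14 for TraesCS5A02G257700, -4.01 for TraesCS3A02G113000 and -3.99 for TraesCS5B02G257000.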

How the results depend on the processing

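The 464 gene models called for drought added to heat became 942 with quantile normalisation, 777 with median-of-ratios scaling, 29 in a model of the compared groups alone, 1637 with limma array weights and 215 with a 2-fold minimum. They became 165 without heat replicates 1 and 3 and 8853 without heat replicates 2 and 4, both chosen after seeing the data, as was leaving out libraries of groups outside a comparison, and ranged from 88 to 1674 with 1 library left out. The 299 differences between drought effects with and without heat became 779 with a filter at 5 TPM, 123 with no filter, 199 with a filter over all 32 libraries, 104 with quantile normalisation, 138 with median-of-ratios scaling and 94 without the 100 most abundant gene models. They became 1 in a model of the compared groups alone, 14 with a title number block, 9933 with array weights, 176 with a 2-fold minimum, 38 without heat replicates 1 and 3, 14334 without heat replicates 2 and 4, and 21 to 9887 with 1 library left out. The 240 differences between salt plus heat and heat became 158 with a pseudocount of 0.1, 158 with no filter, 525 and 425 with the same 2 scalings, 29 in a model of the compared groups alone, 128 with a title number block and 844 with array weights. They became 85 without heat replicates 1 and 3, 3254 without replicates 2 and 4, and 106 to 413 with 1 library left out. The 479 transcripts became 855 with quantile normalisation, 53 in a model of the compared groups alone, 169 without heat replicates 1 and 3, and 103 to 1592 with 1 library left out. The 68 transcript shares became 19, 4 and 20 to 153 in the last 3 of these settings. The cause was not tested in any of these.

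The replicate numbers 1 to 4 showed no pairing of the libraries. Deviations of same-numbered heat and heat plus drought libraries from their group means correlated at -0.10, -0.10, 0.01 and 0.05 across gene models. No heat library correlated best with its own number. The numbers in the library titles differ from the replicate numbers, and pairing by them was not checked in this way. With a replicate block the main count was 504, and the 299 became 682. With a title number block these were 524 and 14. With 1 library left out, the difference in top 100 share ranged from -6.37 to -1.15 percentage points, in gene models at 1 TPM from 951 to 3521, and in low confidence share from 0.434 to 0.800 points. No adjusted exact permutation p passed 0.05. A single measure at 0.0286, the smallest exact permutation p of 4 against 4 libraries, would also miss it after adjustment, so this decides little. Of 566 recomputed values of named gene models 73 lost their call and 0 changed sign. Lowered gene models also lower in drought against control were 14.0% to 34.97% over 5 alternatives, against 0.977% to 11.8% of all tested gene models. Depth is unknown in TPM, which limits what can be said of low values.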
